A study of Mus musculus with 61 samples.

Results

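The mitochondrial ribosomal protein genes were taken as the rows whose symbol is Mrpl or Mrps followed by digits and at most 1 lower-case letter, a rule on names that uses no measured value. It found 77 of the 19462 genes in the table, and all 77 were among the 16682 genes kept by the filter on low counts and tested. By known structure, 50 of them encode proteins of the large ribosomal subunit and 26 proteins of the small subunit. Mrps30 and Mrps18a carry small-subunit names but belong to the large subunit. Mrps36 carries a ribosomal name but encodes a component of the oxoglutarate dehydrogenase complex, and is counted with the 77 because the rule is on names. The data are RNA-seq libraries of skeletal muscle, 61 in all, from the 8 inbred strains that are founders of the Diversity Outbred population. The wild-derived strains were Cast (7 libraries), PWK (7) and WSB (8). The classical strains were AJ (8), B6 (8), 129 (8), NOD (7) and NZO (8). Every mouse received the same high-fat, high-sugar diet, labelled 45 percent fat, and no strain was marked as a control, so the comparisons ask how levels differ with strain on that diet. The labels name no muscle, sex, age or batch and do not tie libraries to single animals. In each strain, 3 or 4 libraries had more Xist than Ddx3y, transcripts typical of females and males. P-values therefore measure the spread between these libraries, which may be partly technical.

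Mitochondria keep a small genome that encodes core subunits of the respiratory chain, and translate it on ribosomes of their own, built from a large and a small subunit. The ribosomal RNAs come from the mitochondrial genome, whereas all the proteins are encoded in the nucleus, made in the cytosol and imported. Some are homologues of bacterial ribosomal proteins and others are found only in mitochondria. Skeletal muscle fibres depend on this machinery to renew oxidative phosphorylation, and inherited loss of single mitochondrial ribosomal proteins causes respiratory chain disease in humans.

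Total estimated counts were between 17.1 M and 65.2 M, with a median of 33.7 M. The 77 genes together took 0.0586% to 0.234% of a library's counts (median 0.194%). The lowest share was in library B6_5, where the ribosomal RNA gene Rn18s-rs5 took 46.3% of the counts, against at most 9.76% in any other library. Muscle markers were abundant in every library, with at least 9558 counts per 1 M (CPM) of the creatine kinase gene Ckm and 41501 CPM of the fast myosin gene Myh4. Hepatocyte markers were also present, with albumin (Alb) between 2.49 and 4452 CPM. Levels below are CPM scaled by the TMM-adjusted library size. All genes went through edgeR's quasi-likelihood F test with the 61 libraries in 1 fit, with p-values adjusted over all genes tested. A gene is said to pass, or to be called, at an adjusted p under 0.05. Log2 differences are given with their standard errors (SE), and strain levels as mean ± SD over libraries.

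The members were moderately abundant, with mean levels of 8.09 to 76.5 CPM and a median of 21.6 CPM, against a median of 7.004 CPM over all genes tested. Levels were also divided by exon length to compare genes. On that scale Mrpl42, a mitochondria-specific large-subunit protein, was highest at 113 CPM per kilobase. Mrps21, a small-subunit homologue of a bacterial protein, followed at 88.1 CPM per kilobase, and the large-subunit Mrpl33 at 73.5. The lowest were the large-subunit members Mrpl17 (3.31 CPM per kilobase), Mrpl57 (3.41) and Mrpl19 (3.43). Length here is the union of annotated exons, so a gene with a long, rarely used exon is scaled down. The use of strand in counting is not given in the sources used here, and reads of overlapping genes or near-identical copies may be split. Of the 77, 20 have a near-identical copy in the annotation, 8 overlap an exon of another gene on the same strand and 27 on the opposite strand. Among members named below, copies are annotated for Mrpl23, Mrps10, Mrps16, Mrpl41, Mrpl42, Mrpl51, Mrps21, Mrps26, Mrps18b, Mrps18c and Mrps36. Overlapping exons are annotated for Mrpl3, Mrpl9, Mrpl10, Mrpl12, Mrpl14, Mrpl18, Mrpl19, Mrpl33, Mrpl36, Mrpl47, Mrpl51, Mrps7, Mrps18b, Mrps18c, Mrps26 and Mrps30, and the values of all these genes are uncertain to that extent.

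Most members differed with strain, by small amounts. Among the 8 strains, 70 of 77 members (90.9%) differed, beside 85.5% of all genes tested. The distance between the highest and lowest strain had a median of 0.54 on the log2 scale for members and 0.91 for all genes tested. A distance of at least 1 was seen in 13 members (16.9%), beside 46.0% of all genes. Mrpl23 had by far the largest distance, 21.8-fold, and Mrpl41 came next at 2.89-fold. Cast had the highest mean level for 24 members, PWK for 18 and WSB for 13, while AJ had it for 1 member and B6 for 0. The lowest mean was in AJ for 16 members and in B6 for another 16, each 20.8% of the members. The B6 means include library B6_5, and these ranks were not computed without it. Without B6_5 the summed members averaged 1841 CPM in B6, against 1810 CPM in AJ. Over all genes tested, the highest mean was in Cast for 29.1% of genes, in PWK for 14.6%, in WSB for 14.2%, in AJ for 10.2% and in B6 for 9.43%. The lowest mean over all genes tested was in AJ for 13.1% of genes and in B6 for 7.52%.

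**Figure D1:**
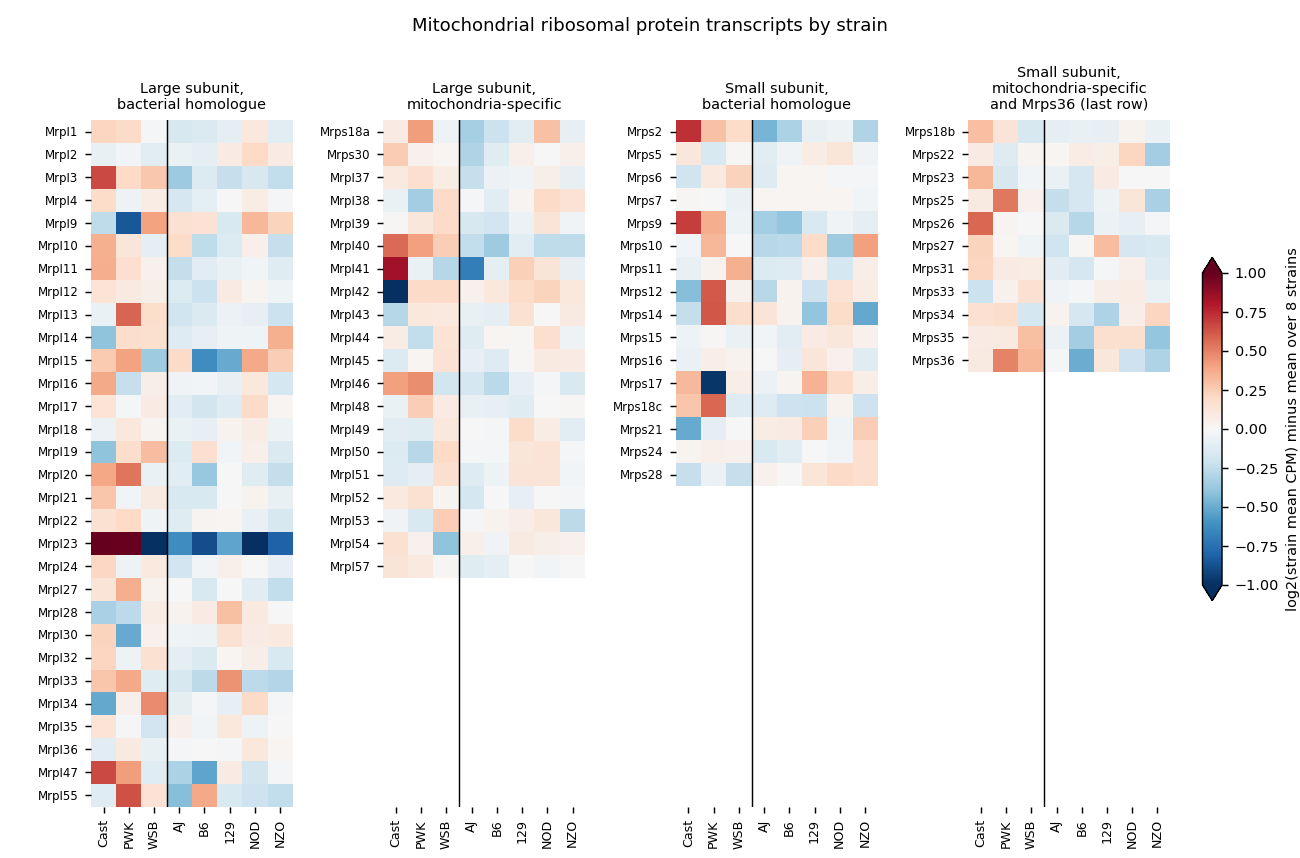
Each row is 1 member and each column a strain, with wild-derived strains left of the black line; colour is the log2 strain mean CPM minus the mean over the 8 strains, and the colour scale stops at 1 in both directions. Most rows stay pale, Mrpl23 is high in Cast and PWK alone, and single dark blue cells mark Mrpl42 in Cast and Mrps17 and Mrpl9 in PWK.

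The 7 members that did not pass among strains were Mrps7, Mrps15 and Mrps16 of the small subunit and Mrpl18, Mrpl36, Mrpl52 and Mrpl57 of the large subunit. Mrps7, whose bacterial homologue binds the small-subunit ribosomal RNA, was the flattest of all 77. Its strain means lay between 39.0 and 41.4 CPM (F = 0.312, adjusted p = 0.947), and single libraries between 29.8 and 51.7 CPM overlapped in all strains. Mrpl18 had strain means of 53.2 to 60.4 CPM (adjusted p = 0.265), and Mrps15 had 24.2 to 28.2 CPM (adjusted p = 0.0874). Mrpl57 and Mrpl52 crossed the threshold under other settings: Mrpl57 with DESeq2 (adjusted p = 0.0498) and Mrpl52 with the title number as a block (adjusted p = 0.0401). Leaving out 1 library also brought Mrps15 past it, for PWK_1, PWK_6, Cast_2, Cast_7, WSB_6, B6_4 and NOD_5 (adjusted p from 0.027 to 0.0478), and Mrpl57 for B6_1, NZO_1 and WSB_9 (from 0.039 to 0.0403). These 7 genes were therefore the ones for which no strain difference was detected, not genes shown to be equal.

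Mrpl23, a large-subunit protein at the exit of the peptide tunnel, had the largest F of the members (172, adjusted p = 5.4e-33). Its level was 22.9, 26.8 and 29.9 CPM (lowest, median and highest library) in Cast and 27.1, 28.9 and 31.5 CPM in PWK. In the other 6 strains the strain means lay between 1.34 CPM (NOD) and 2.77 CPM (129), and the highest single library had 4.59 CPM. No Cast or PWK library overlapped with any library of the other strains. The processed pseudogene Mrpl23-ps1, which is counted as a gene of its own in the table, showed the opposite pattern. It averaged 0.645 ± 1.11 CPM in Cast and 0.517 ± 0.364 CPM in PWK, against strain means of 21.96 CPM (WSB) to 26.2 CPM (129) in the other 6 strains. Summed over both genes, the strain means lay between 23.7 and 29.6 CPM. Of that sum, Mrpl23 held 97.7% ± 3.61 in Cast and 98.3% ± 1.22 in PWK, and strain means of 4.94% (NOD) to 9.53% (129) in the others.

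Mrpl23 lies at chr7:142532686-142540747 (plus strand) and Mrpl23-ps1 at chr2:74591330-74591909 (minus strand) on GRCm38, as annotated in GENCODE release M21. The 692-base transcript of Mrpl23 and the pseudogene aligned over 543 bases with 2 mismatches. All 441 coding bases were aligned and 0 of them differed, so both mismatches lie outside the coding part. The first 150 coding bases are shown because they are the same, letter for letter, in the gene and in its copy; there is no mismatch to mark in capitals.
Mrpl23 and Mrpl23-ps1: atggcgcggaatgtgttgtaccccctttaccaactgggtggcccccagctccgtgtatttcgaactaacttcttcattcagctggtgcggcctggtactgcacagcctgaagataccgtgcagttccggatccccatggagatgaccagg
With the counts of both genes summed, the strains still differed (F = 3.62, adjusted p = 0.0038), with 0.32 between highest and lowest on the log2 scale in place of 4.44. The sum was lower in WSB (log2 difference from the other 7 strains -0.22 ± 0.05 SE, adjusted p = 0.0011) and higher in PWK (0.15 ± 0.06, adjusted p = 0.028). Cast did not differ (-0.02 ± 0.06, adjusted p = 0.75). The deposited values thus place nearly the same sum on one of the 2 genes or on the other, and whether Mrpl23 itself differs between strains cannot be told apart from how reads were assigned.

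**Figure D2:**
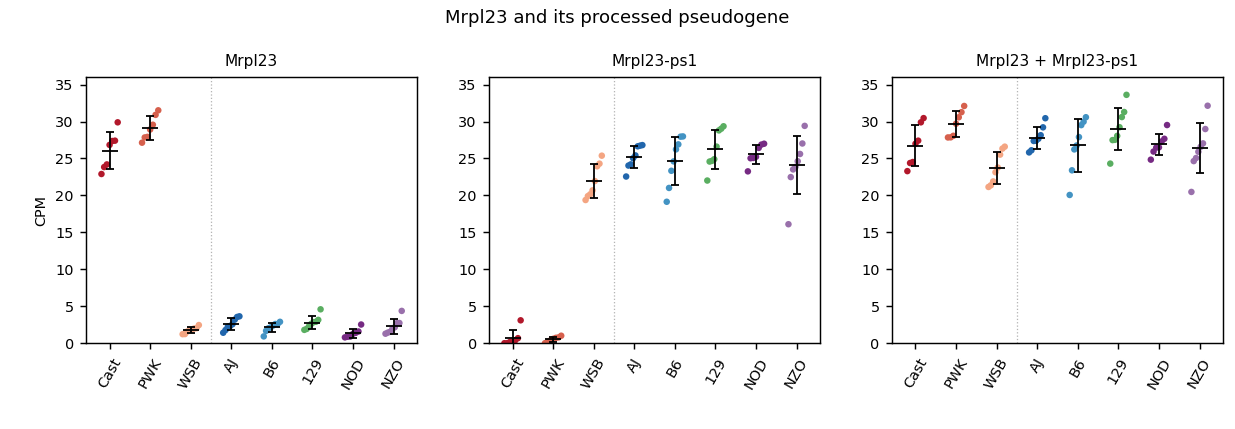
Points are libraries, black marks the mean and SD of a strain, and the dotted line separates wild-derived strains (left) from classical ones; the y axes are CPM. Mrpl23 is at 22.9 CPM or more in Cast and PWK and at most 4.59 CPM elsewhere, Mrpl23-ps1 is reversed, and the sum lies between 20.1 and 33.6 CPM in all 61 libraries.

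The wild-derived strains had higher levels of most members than the classical strains. Of 77 members, 46 were higher and 11 lower, beside 32.3% of all genes tested that were higher and 26.5% that were lower. The median log2 difference was 0.13 over the members and 0.03 over all genes tested. Large-subunit members were 30 higher and 8 lower of 50, and small-subunit members 15 higher and 3 lower of 26. Among the 10 mitochondria-specific small-subunit members, 8 were higher and 0 lower, and among the 16 with bacterial homologues 7 and 3. In the large subunit, 20 were higher and 4 lower of 30 with bacterial homologues, and 10 and 4 of 20 mitochondria-specific members. The counts changed little with each wild-derived strain left out in turn: 42 higher and 10 lower without Cast, 43 and 9 without PWK, and 45 and 14 without WSB. Strain means of the summed members overlapped between the groups. They were 2079 CPM in PWK, 2049 CPM in Cast and 1996 CPM in WSB. Classical strains had 2004 CPM in NOD, 1955 CPM in 129, 1890 CPM in NZO, 1810 CPM in AJ and 1787 CPM in B6 (1841 CPM without B6_5). Of the 33 members with neither a near-identical copy in the annotation nor an exon that overlaps another gene, 21 were higher and 7 lower. The spread behind these p-values is that of libraries; the strains themselves number 3 and 5.

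**Figure D3:**
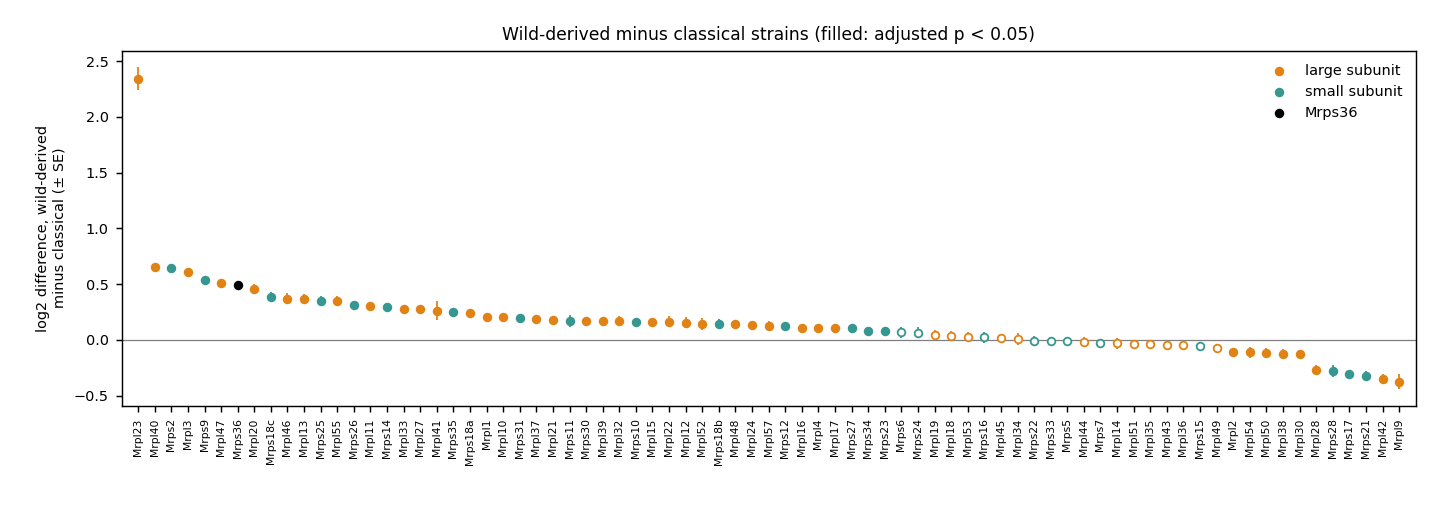
Points are the log2 differences of the 77 members between wild-derived and classical strains, with SE bars, ordered from highest to lowest; filled points passed (46 above and 11 below 0). Mrpl23 stands at 2.34, and the other members lie between 0.65 (Mrpl40) and -0.37 (Mrpl9).

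Beside Mrpl23, the highest members in the wild-derived strains were Mrpl40, Mrps2 and Mrpl3. Mrpl40, a mitochondria-specific large-subunit protein, had 13.2, 14.9 and 20.6 CPM (lowest, median and highest library) in the wild-derived strains, against 7.504, 9.89 and 12.6 CPM in the classical strains. Every wild-derived library was above every classical one, and the log2 difference was 0.65 ± 0.04 (adjusted p = 1.1e-21). This held for 1 member, beside 0.0839% of all genes tested, and 0 members lay below every classical library, beside 0.144%. Mrps2, a small-subunit protein with a bacterial homologue, averaged 22.5 ± 4.8 CPM in wild-derived strains and 14.3 ± 1.8 CPM in classical strains (SD over 3 and 5 strain means; log2 difference 0.64 ± 0.03, adjusted p = 7.5e-24). Single Mrps2 libraries overlapped slightly, from 17.7 CPM in the wild-derived strains and up to 18.4 CPM in the classical ones. Mrpl3, whose bacterial homologue reaches towards the peptidyl transferase centre, averaged 46.0 ± 8.3 CPM in wild-derived and 30.0 ± 1.8 CPM in classical strains (0.60 ± 0.03, adjusted p = 1.6e-23). Mrps9 (0.53 ± 0.03) and Mrpl47 (0.51 ± 0.04) were also higher, Mrps9 with 32.3 ± 8.2 CPM in wild-derived and 21.9 ± 2.3 CPM in classical strains.

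The lowest members of the contrast were Mrpl9 (log2 difference -0.37 ± 0.07, adjusted p = 8.5e-06), Mrpl42 (-0.35 ± 0.04, adjusted p = 3.9e-10), Mrps21 (-0.32 ± 0.04, adjusted p = 1.8e-08) and Mrps17 (-0.31 ± 0.03, adjusted p = 6.9e-13). For 3 of these, 1 strain carried the difference. Without PWK, Mrps17 was higher in the other wild-derived strains (0.09, adjusted p = 0.0086) and Mrpl9 no longer passed (-0.06, adjusted p = 0.58). Without Cast, Mrpl42 did not pass (0.06, adjusted p = 0.14). Mrps21 averaged 30.2 CPM in Cast, 40.2 CPM in PWK and 42.8 CPM in WSB, against 41.8 to 50.8 CPM in the classical strains, so the 2 groups' strain means overlapped, and its log2 difference was -0.17 without Cast.

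Transcripts of other cell types also differed between these groups, where 32.3% of all genes tested were higher and 26.5% lower in the wild-derived strains. All 9 lymphocyte markers were higher in the wild-derived strains, as were 6 of 7 keratinocyte markers, 3 of 10 hepatocyte markers and 7 of 8 adipocyte markers, with 1 adipocyte marker lower. Without WSB the filter on low counts kept 7 of the lymphocyte markers, of which 6 were higher, and the adipocyte count was 4 higher. Without Cast, or without library B6_5, the hepatocyte count was 1. The summed lymphocyte markers were 22.6 to 279 CPM in wild-derived libraries and 3.65 to 237 CPM in classical ones, and 8 of the 9, all except the immunoglobulin gene Ighm, were at 0 in at least 1 library. The summed hepatocyte markers were 85.4 to 6930 CPM in wild-derived and 9.05 to 2003 CPM in classical libraries, with Serpina1a at 0 in some libraries. Keratinocyte markers summed to 1.97 to 372 CPM in wild-derived and 1.90 to 204 CPM in classical libraries, with Krt14, Lor, Dmkn and Krtdap at 0 in some. The medians of these sums were close, at 3.78 and 3.46 CPM. The highest wild-derived sums were in Cast_8, WSB_7, PWK_9 and PWK_3, while the strain median was highest in B6. With the hepatocyte, keratinocyte and lymphocyte sums as covariates, 42 members were higher and 9 lower. Without the libraries highest in keratinocyte markers, 42 were higher and 11 lower. No hepatocyte or lymphocyte sum passed the limit for leaving a library out, so libraries rich in those markers stayed in. Adipocyte markers summed to 118 to 1347 CPM in wild-derived and 169 to 869 CPM in classical libraries, with Lep and Ucp1 at 0 in some, and their part in the member differences was not tested. In bulk tissue, a smaller share of muscle cells and less RNA per cell cannot be told apart.

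**Figure D4:**
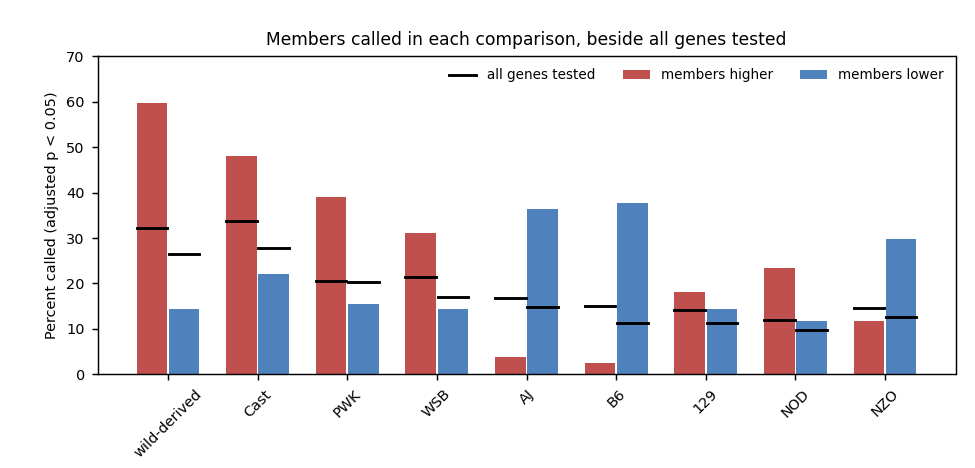
Bars are the percent of the 77 members called higher (red) or lower (blue) in the wild-derived strains against the classical ones and in each strain against the other 7; black lines are the percent of all 16682 genes tested. The red bars lie above their lines in the wild-derived strains, 129 and NOD, and the blue bars do so most in AJ, B6 and NZO.

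Cast had 37 members higher and 17 lower than the mean of the other 7 strains, beside 33.8% and 27.9% of all genes tested. Of the 30 large-subunit members with bacterial homologues, 20 were higher and 5 lower, and of the 20 mitochondria-specific ones 6 and 6. In the small subunit, 5 were higher and 5 lower of 16 with bacterial homologues, and 6 and 1 of 10 mitochondria-specific members. Mrps2 was 0.84 ± 0.05 higher on the log2 scale (adjusted p = 3.1e-22), with 28.0 ± 3.0 CPM in Cast and 15.9 ± 3.1 CPM in the others (SD over 7 strain means). Mrpl3 had 45.0 to 64.7 CPM in Cast and at most 44.9 CPM in any other library, and Mrps26 had 18.4 to 25.1 CPM in Cast and at most 16.7 CPM elsewhere. These were the 2 members whose Cast libraries all lay above every other library, beside 1.32% of all genes tested. Mrps26, a mitochondria-specific small-subunit protein, was named for this after its values were seen. Other genes moved in Cast too: 7 of 12 general mitochondrial genes were higher and 1 lower, and of 8 adipocyte markers 4 were higher and 1 lower. Higher markers were also 3 of 8 for skeletal muscle (37.5%), 4 of 10 for hepatocytes (40%) and 4 of 9 for lymphocytes (44.4%). These 3 shares lie near the 33.8% of all genes tested. Apart from the covariate and left-out-library alternatives above, the part of such genes in the member differences was not tested, here or for the strains that follow.

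Mrpl42 was the largest decrease in Cast, and the 1 member whose Cast libraries all lay below every other library (1.18% of all genes tested did). It had 25.4, 38.1 and 46.2 CPM in Cast, against strain medians of 77.5 CPM (AJ) to 85.1 CPM (NOD) in the other strains and no library there under 61.4 CPM. The log2 difference was -1.18 ± 0.07 (adjusted p = 1.0e-21). Mrpl34, a large-subunit homologue of a bacterial protein, was lower (log2 difference -0.58 ± 0.08, adjusted p = 2.0e-08). Mrpl41 was higher in Cast by 0.96 ± 0.11 (adjusted p = 1.8e-10), but its Cast libraries ranged from 7.19 to 34.7 CPM with a median of 10.3 CPM, and 3 of the 7 lay above the 4.76 to 12.4 CPM of the other strains. Without Cast_6 the difference was 0.63. Mrpl9 was similarly spread in Cast, from 13.3 to 49.9 CPM (median 18.8 CPM).

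PWK had 30 members higher and 12 lower, beside 20.6% and 20.3% of all genes tested. Mrps17, a small-subunit protein that binds ribosomal RNA in bacteria, had 9.84, 12.4 and 13.8 CPM in PWK, against at least 21.2 CPM in every library of the other strains. This was the 1 member below all other libraries (0.917% of all genes tested), with a log2 difference of -1.11 ± 0.05 (adjusted p = 8.3e-27). Mrps14 had 28.0, 34.6 and 39.9 CPM in PWK and at most 27.0 CPM elsewhere (0.71 ± 0.05, adjusted p = 8.3e-18). Mrps12, the homologue of the bacterial decoding-centre protein at which streptomycin resistance arises, had 15.3, 16.8 and 19.97 CPM in PWK and at most 13.8 CPM elsewhere (0.70 ± 0.06, adjusted p = 6.1e-15). Mrps14 and Mrps12 were the 2 members above all other libraries, beside 0.971% of all genes tested. Mrpl55 was 0.73 ± 0.07 higher (adjusted p = 6.5e-14). Mrpl9 was lower (log2 difference -0.97 ± 0.11, adjusted p = 2.1e-10), with 16.97 ± 1.6 CPM in PWK and 33.6 ± 5.4 CPM over the other strain means. Cast_2, Cast_3, Cast_7 and Cast_8 overlapped the PWK libraries, with 13.3 to 18.8 CPM of Mrpl9. In PWK, 3 of 7 keratinocyte, 4 of 9 lymphocyte and 4 of 6 macrophage markers were higher, while 6 of 12 general mitochondrial genes were lower. The keratinocyte sums were highest in PWK_3 and PWK_9 (7.70 and 7.86 on the log2 scale), and the PWK median was 1.61.

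**Figure D5:**
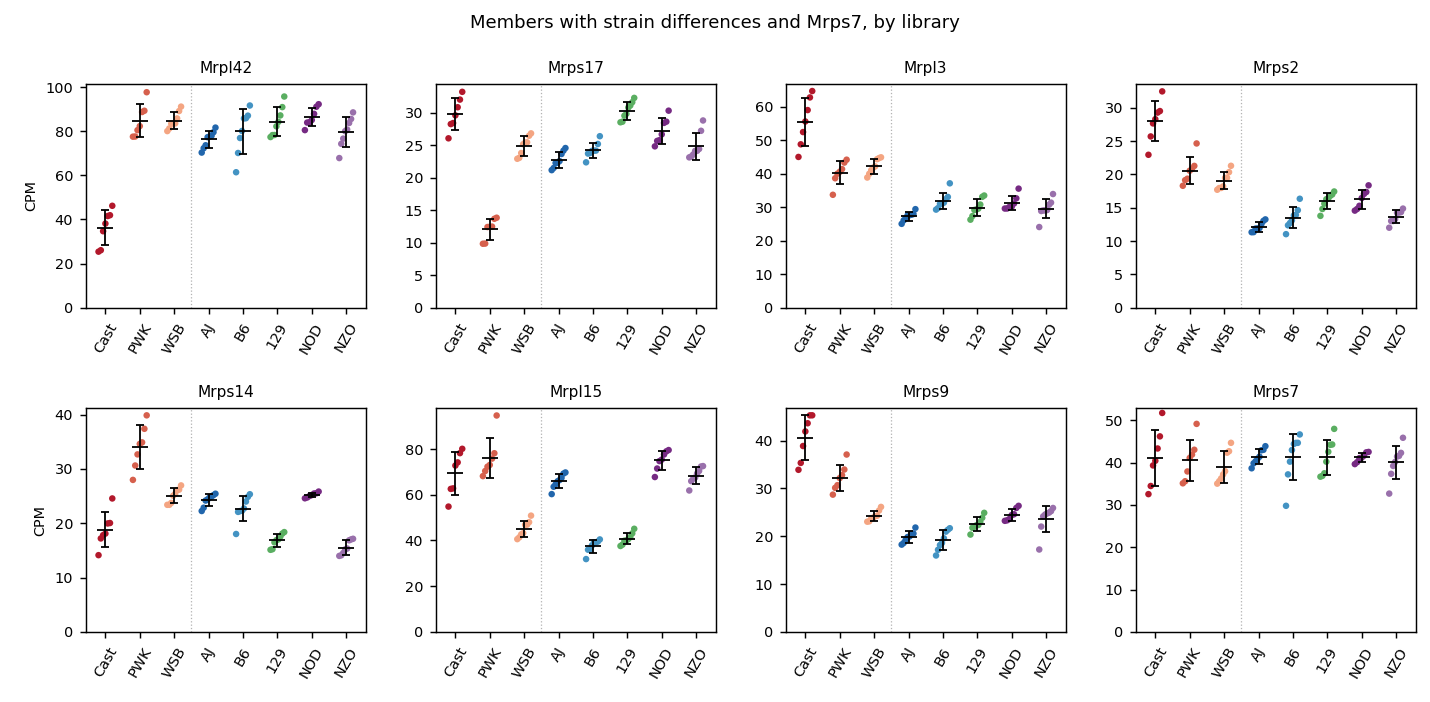
Points are libraries and black marks the mean and SD of a strain; y axes are CPM and start at 0, and the dotted line separates wild-derived (left) from classical strains. Mrpl42 is low in Cast and Mrps17 in PWK without overlap, Mrpl15 is low in WSB, B6 and 129, and the strain means of Mrps7 lie between 39.0 and 41.4 CPM.

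WSB had 24 members higher and 11 lower, beside 21.4% and 17% of all genes tested. Mrpl34 was higher, with 15.7, 20.4 and 22.8 CPM in WSB, against 6.87 to 17.9 CPM outside WSB (0.54 ± 0.07, adjusted p = 7.6e-09). Mrpl9 was also higher (0.46 ± 0.09, adjusted p = 8.9e-05), in contrast to its level in PWK. Mrpl54, a mitochondria-specific large-subunit protein, was lowest in WSB with 15.6 ± 2.6 CPM, against 21.4 ± 0.84 CPM over the other strain means (-0.46 ± 0.07, adjusted p = 4.5e-07). Mrpl15 was low in WSB too (-0.41 ± 0.05, adjusted p = 2.8e-10). All 9 lymphocyte markers were higher in WSB (median log2 difference 3.73), as were 7 of 8 adipocyte markers, with 1 lower. Without WSB the filter on low counts kept 7 of the 9 lymphocyte markers, so the rest were tested only through the WSB libraries. Of 8 skeletal muscle markers 1 was higher and 4 were lower, and 4 of 9 fast-fibre genes were lower. With the marker sums as covariates, 25 members were higher and 7 lower in WSB.

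AJ had 3 members higher and 28 lower, beside 16.8% and 14.9% of all genes tested, and a median log2 difference of -0.13, against -0.02 over all genes. Lower members included 11 of the 30 large-subunit members with bacterial homologues and 9 of the 20 mitochondria-specific ones. Mrpl41, a mitochondria-specific large-subunit protein, had 4.76, 5.19 and 6.63 CPM in AJ, and the other strains had means of 7.14 to 15.6 CPM (-0.79 ± 0.13, adjusted p = 1.3e-06). Mrps2 had 12.2 ± 0.72 CPM in AJ and 18.2 ± 5.1 CPM over the other strain means (-0.53 ± 0.05, adjusted p = 1.0e-12). Mrpl15 (0.22 ± 0.04, adjusted p = 0.00010) and Mrpl10 (0.21 ± 0.04, adjusted p = 8.0e-05) were the largest increases in AJ. For Mrpl10 the AJ libraries, at 24.2 to 29.8 CPM, overlapped those of Cast (28.4 to 32.6 CPM) and PWK (22.2 to 28.8 CPM). Mrpl10 forms the base of the stalk that carries Mrpl12. Other genes were lower in AJ as well: 6 of 12 general mitochondrial genes (median log2 difference -0.14), 4 of 8 skeletal muscle markers (median -0.18), 4 of 9 fast-fibre genes (median -0.17) and 3 of 9 lymphocyte markers, with 0 higher in each of these lists. Of 6 macrophage markers, 3 were higher in AJ. With the marker sums as covariates, 3 members were higher and 25 lower in AJ.

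B6 had 2 members higher and 29 lower, beside 15% and 11.2% of all genes tested. Without library B6_5 the counts were 4 and 25, and without the 13 libraries highest in keratinocyte markers, of which 5 were B6, they were 1 and 13. The members summed to 1407 CPM in B6_5 and to 1726 to 1906 CPM in the other 7 B6 libraries. Mrpl15 had 31.8, 38.5 and 40.4 CPM in B6 (-0.71 ± 0.05, adjusted p = 3.2e-18). Mrpl47 had 12.6 ± 1.4 CPM in B6 and 19.6 ± 5.0 CPM over the other strain means (-0.60 ± 0.06, adjusted p = 5.4e-13). The 2 higher members were Mrpl55 (0.43 ± 0.06, adjusted p = 3.4e-07) and Mrpl19 (0.19 ± 0.06, adjusted p = 0.020). Mrpl19 did not pass without the libraries high in keratinocyte markers (adjusted p = 0.52). In B6, 7 of 9 lymphocyte markers were higher, and 4 of 12 general mitochondrial genes and 2 of 8 skeletal muscle markers were lower.

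The strain 129 had 14 members higher and 11 lower, beside 14.2% and 11.4% of all genes tested, and with the marker sums as covariates 6 and 9. Mrpl33, a small protein of the large subunit, had 40.9, 45.7 and 54.5 CPM in 129 and was 0.51 ± 0.05 higher than in the other strains (adjusted p = 3.6e-13). PWK and Cast libraries overlapped this range, with medians of 45.6 and 42.2 CPM. Mrps17 was highest in 129 (0.40 ± 0.04, adjusted p = 1.6e-11). Mrpl15 was lower, at 40.7 ± 2.5 CPM in 129 (-0.57 ± 0.05, adjusted p = 1.1e-14). In 129, 5 of 8 adipocyte and 4 of 6 macrophage markers were lower, and 3 of 9 fast-fibre genes were higher.

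NOD had 18 members higher and 9 lower, beside 11.9% and 9.79% of all genes tested. Mrpl15 was 0.43 ± 0.05 higher (adjusted p = 5.0e-11), with 67.7, 75.4 and 79.6 CPM in NOD. Together with its values above, this splits Mrpl15 into strains with means of 65.9 to 76.1 CPM (NOD, Cast, PWK, NZO and AJ) and strains with means of 37.5 to 45.0 CPM (WSB, 129 and B6), and the highest library of the second set had 50.9 CPM against a lowest of 54.8 CPM in the first. The split was described after the values were seen. Mrpl9 was also higher in NOD (0.38 ± 0.10, adjusted p = 0.0040). Mrps10, a small-subunit protein, was lowest in NOD with 16.5 ± 0.97 CPM (-0.41 ± 0.05, adjusted p = 1.4e-09). Of 12 general mitochondrial genes, 2 were higher and 1 lower in NOD.

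NZO, a polygenic obese strain, had 9 members higher and 23 lower, beside 14.6% and 12.7% of all genes tested. Mrps10 was highest here, with 26.8, 28.3 and 29.8 CPM in NZO (0.47 ± 0.04, adjusted p = 1.8e-13), and the next strain was PWK with a median of 27.3 CPM and overlapping libraries. Mrpl14, the large-subunit protein to which the assembly factor Malsu1 binds, was also higher (0.41 ± 0.06, adjusted p = 9.1e-07). Mrps14 was lower, with 14.0 to 17.1 CPM in NZO (-0.59 ± 0.05, adjusted p = 2.7e-13), and 129 overlapped it with 15.1 to 18.4 CPM. All 7 slow-fibre genes listed, among them the slow myosin Myh7, were higher in NZO (median log2 difference 1.14), and 6 of 7 keratinocyte markers were lower.

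Members with particular roles did not share one pattern. Mrps18a, Mrps18b and Mrps18c are paralogues of which 1 copy sits in the large subunit and the others occupy different sites of the small subunit. Mrps18a ranged from 23.9 CPM in AJ to 40.2 CPM in PWK (F = 36.4, adjusted p = 2.3e-17) and Mrps18c from 11.5 CPM in 129 to 19.8 CPM in PWK (F = 24.3, adjusted p = 7.6e-14). Mrps18b varied less, from 24.9 CPM in WSB to 34.4 CPM in Cast (F = 6.39, adjusted p = 3.0e-05). Its Cast libraries were uneven, with 35.5 to 46.6 CPM in Cast_1, Cast_5 and Cast_6 and 25.7 to 30.5 CPM in the rest. Mrps18b and Mrps18c each have a near-identical copy in the annotation that is not in the table. Mrpl12, which also binds the mitochondrial RNA polymerase, ranged from 48.0 CPM in B6 to 61.3 CPM in Cast (adjusted p = 0.0028). The B6 mean of Mrpl12 includes B6_5 at 34.2 CPM, and the other B6 libraries had 47.2 to 53.8 CPM. Mrpl45, which helps tether the ribosome to the inner membrane, ranged from 31.3 CPM in Cast to 38.1 CPM in WSB (adjusted p = 0.0029). Mrps30 was highest in Cast at 24.1 ± 4.5 CPM and lowest in AJ at 16.4 ± 0.69 CPM. Mrps36, the dehydrogenase component, was higher in the wild-derived strains, with 47.8 ± 6.6 CPM, against 34.2 ± 5.7 CPM in the classical strains (0.49 ± 0.04, adjusted p = 8.9e-15). Its lowest strain mean was that of B6, which includes B6_5. Mrps36 has 5 near-identical copies in the annotation, none of them in the table. Mrpl58, the ribosome-bound peptidyl-tRNA hydrolase, stands in the table under its older symbol Ict1, outside the rule, and was higher in the wild-derived strains by 0.15 on the log2 scale, a difference that did not pass without PWK (adjusted p = 0.22).

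Within strains, members varied together from library to library. After each strain's mean was removed from the log2 CPM, the mean correlation over pairs of members was r = 0.356 across 61 libraries, beside 0.002 over pairs of all genes tested, and 92.8% of member pairs were positive. Pairs within the large subunit averaged 0.371, pairs within the small subunit 0.321 and pairs across them 0.343. Without library B6_5 the mean was 0.295 over 60 libraries. The libraries share depth, RNA quality and tissue composition, and genes are not independent replicates, so these values are a description. The value over all genes is held near 0 in part by the TMM scaling, and pairs were not matched on level. Mrpl51, Mrpl12 and Mrps7 followed the other members most closely, with mean r of 0.523, 0.518 and 0.513, and Mrpl41 (0.013) and Mrpl23 (0.095) least. Without B6_5 the first 3 kept their order, while Mrpl23 (-0.030) lay below Mrpl41 (-0.022). Mrpl51, a mitochondria-specific large-subunit protein, was named here after its values were seen. The ratio of summed small- to large-subunit CPM was 0.448 ± 0.0088 in Cast, 0.433 ± 0.0055 in PWK and 0.420 ± 0.0082 in WSB. Among classical strains NOD was lowest with 0.424 ± 0.0059, and the other 4 lay between 0.438 and 0.441. The strain means of the summed members lay between 1787 CPM (B6) and 2079 CPM (PWK), with 1841 CPM in B6 when B6_5 was left out.

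Promoter windows of 300 bases (250 before to 50 after the annotated start, RefSeq on GRCm38.p6) were found for 68 of the 77 members. They were searched on both strands for letters bound by NRF1, ETS factors such as GABP, and YY1, transcription factors known to act on nuclear genes of mitochondrial proteins. The NRF1 letters, GCGCA followed by any base and GCGC, were in the windows of 13 members (19.1%), beside 10.1% of genes tested that had a window. The ETS letters CCGGAAG were in 25 (36.8%, beside 17.4%), and the YY1 core AAGATGG in 13 (19.1%, beside 7.84%). At least 1 of the 3 was in 42 members (61.8%, beside 30.8%). The median GC content was 58.5% for the members' windows and 52.7% for all windows in the table, and windows were not matched on it. A match is a run of letters and not a measured binding site.

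The windows of the 3 members that followed the others most closely, and of Mrpl41, which did so least over the 61 libraries, are shown 5′ to 3′ on the gene's strand because each of the first 3 holds a different motif; capitals mark the NRF1 letters in Mrpl12 (chr11:120484387-120484686, plus strand), the ETS letters in Mrpl51 (chr6:125191950-125192249, plus strand) and the YY1 core in Mrps7 (chr11:115603890-115604189, plus strand), and Mrpl41 (chr2:24975049-24975348, minus strand) has none.
Mrpl12: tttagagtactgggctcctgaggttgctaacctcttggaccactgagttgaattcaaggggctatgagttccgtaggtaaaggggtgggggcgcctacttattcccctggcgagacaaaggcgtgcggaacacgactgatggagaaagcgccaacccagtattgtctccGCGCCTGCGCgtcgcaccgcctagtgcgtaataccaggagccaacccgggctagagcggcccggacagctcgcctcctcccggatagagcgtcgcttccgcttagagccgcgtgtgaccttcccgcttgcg
Mrpl51: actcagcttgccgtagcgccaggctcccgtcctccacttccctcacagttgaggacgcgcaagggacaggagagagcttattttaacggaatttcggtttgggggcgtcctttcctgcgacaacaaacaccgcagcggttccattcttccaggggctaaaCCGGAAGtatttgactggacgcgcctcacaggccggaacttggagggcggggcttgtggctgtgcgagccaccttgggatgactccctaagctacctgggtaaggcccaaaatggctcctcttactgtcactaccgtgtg
Mrps7: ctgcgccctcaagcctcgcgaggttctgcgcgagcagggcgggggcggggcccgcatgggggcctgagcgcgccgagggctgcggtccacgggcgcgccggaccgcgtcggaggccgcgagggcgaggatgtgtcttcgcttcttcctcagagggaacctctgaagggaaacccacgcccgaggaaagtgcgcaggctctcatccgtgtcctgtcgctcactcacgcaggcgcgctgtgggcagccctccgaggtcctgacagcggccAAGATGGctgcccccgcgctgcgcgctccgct
Mrpl41: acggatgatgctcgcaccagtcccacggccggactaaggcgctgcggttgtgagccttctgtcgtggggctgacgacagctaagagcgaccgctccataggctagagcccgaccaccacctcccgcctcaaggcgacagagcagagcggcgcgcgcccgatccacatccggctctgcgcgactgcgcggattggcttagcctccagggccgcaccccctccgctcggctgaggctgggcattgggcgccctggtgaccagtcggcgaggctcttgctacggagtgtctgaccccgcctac
These letters are those of the reference genome, and the sequences of the other strains were not used here. Whether matches go with covariation was not tested. Among the members with the lowest mean r, Mrpl41 (0.013) and Mrpl23 (0.095) hold none of these motifs, while Mrpl9 (0.123) holds the NRF1 letters. Without B6_5, Mrpl32 (0.026) was among the lowest, and its window holds the NRF1 letters and the YY1 core.

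The other genes of mitochondrial translation were taken from lists of textbook members, and for several genes named here the difference between wild-derived and classical strains rested mainly on 1 strain. Of 24 assembly factors of the mitochondrial ribosome, 10 were higher and 6 lower in the wild-derived strains (median log2 difference 0.05). The shares of all genes tested, for this and the lists that follow, were 32.3% higher and 26.5% lower. Mterf3, which acts on mitochondrial ribosome assembly and transcription, was highest in Cast at 21.7 CPM and averaged 15.9 ± 5.2 CPM in wild-derived and 11.3 ± 0.61 CPM in classical strains (0.45 ± 0.05, adjusted p = 1.4e-12; 0.20 without Cast). Nsun4, a ribosomal RNA methyltransferase that pairs with Mterf4, was lower (-0.27 ± 0.05, adjusted p = 2.6e-05), with 8.24 CPM in Cast but 22.5 CPM in PWK, and was 0.08 without Cast (adjusted p = 0.11). Of 13 translation factors, 4 were higher and 6 lower, and without Cast 6 were higher and 4 lower. The ribosome recycling factor Gfm2 averaged 52.7 ± 18 CPM in wild-derived and 70.4 ± 4.5 CPM in classical strains (-0.47 ± 0.03, adjusted p = 1.3e-20), and the release factor Mtrf1 6.86 ± 2.7 CPM and 9.95 ± 0.65 CPM (-0.62 ± 0.05, adjusted p = 1.6e-15). Without Cast the log2 difference was -0.25 for Gfm2 and -0.28 for Mtrf1, and WSB, at 72.2 CPM of Gfm2, lay within the classical strain means. Of 20 aminoacyl-tRNA synthetase and amidotransferase genes, 5 were higher and 7 lower, and without Cast 7 were higher and 4 lower. Rars2, the arginyl enzyme, was lowest in PWK at 4.64 CPM and highest in AJ at 11.5 CPM (F = 65.4, adjusted p = 5.7e-23). Of 5 mitochondrial ribosomal proteins with other names, Dap3 was higher (0.10 ± 0.03, adjusted p = 0.0023), and Aurkaip1 (-0.27 ± 0.04, adjusted p = 5.0e-09) and Gadd45gip1 (-0.13 ± 0.05, adjusted p = 0.021) were lower. Dap3 did not pass without Cast (adjusted p = 0.17) or without WSB (0.64), nor Gadd45gip1 without WSB (0.75) or with the marker sums as covariates (0.10).

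Of 10 genes of mitochondrial transcription and RNA stability, 2 were higher and 3 lower in the wild-derived strains. Over all genes tested, 32.3% were higher and 26.5% lower. Tfb2m, a mitochondrial transcription factor, averaged 34.2 ± 1.8 CPM in wild-derived and 44.5 ± 2.6 CPM in classical strains (-0.38 ± 0.04, adjusted p = 2.9e-13). Of 9 nuclear regulators of mitochondrial genes, 3 were higher and 0 lower, namely Gabpb1 (0.21 ± 0.06, adjusted p = 0.0012), Gabpa (0.17 ± 0.04, adjusted p = 0.00029) and Pprc1 (0.16 ± 0.05, adjusted p = 0.0022). The Gabpa difference was carried by Cast, at 53.0 CPM in Cast, 34.9 CPM in PWK and 33.1 CPM in WSB, against 33.4 to 36.3 CPM in the classical strains, and was -0.04 without Cast (adjusted p = 0.22). Pprc1 did not pass without PWK (adjusted p = 0.062). Without Cast, 2 of the 9 regulators were higher and 2 lower. Nrf1 itself did not pass (0.14 ± 0.08, adjusted p = 0.096), and Ppargc1a, a coactivator of mitochondrial biogenesis, did not either (-0.31 ± 0.15, adjusted p = 0.072). Both crossed the threshold when certain libraries or strains were left out: Nrf1 without PWK, WSB, Cast_7 or Cast_8, and Ppargc1a without Cast, WSB, Cast_1, Cast_2, 129_2 or B6_1, with Xist as a covariate, or in limma on the log2 values. Of 12 general mitochondrial genes, 6 were higher and 1 lower, and without Cast 2 were higher and 2 lower. Phb, a prohibitin of the inner membrane, averaged 116 ± 18 CPM in wild-derived and 101 ± 5.9 CPM in classical strains, with 134 CPM in Cast but 97.1 CPM in PWK, and the outer-membrane channel Vdac1 was the one that was lower (-0.28 ± 0.03, adjusted p = 2.1e-10).

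The 13 protein genes of the mitochondrial genome, whose messages these ribosomes translate, had 0 higher and 9 lower in the wild-derived strains. Over all genes tested, 32.3% were higher and 26.5% lower. The 13 genes had a median log2 difference of -0.18. Without WSB, 1 was higher and 6 lower, and without PWK 1 and 7. The largest difference was that of mt-Co2 (-4.14 ± 0.18, adjusted p = 9.5e-28), which was carried by Cast at 60.4 CPM and PWK at 52.2 CPM. WSB had 3834 CPM of mt-Co2, within the 3594 to 4321 CPM of the classical strain means. The next was mt-Nd4l (-2.10 ± 0.06, adjusted p = 3.1e-35), carried mainly by PWK at 30.5 CPM. Cast had 968 CPM and WSB 1089 CPM of mt-Nd4l, against 1366 ± 121 CPM in the classical strains, and the difference was -0.40 without PWK (adjusted p = 6.1e-07). Most others were lower by less, such as mt-Co1 (-0.18 ± 0.05, adjusted p = 0.0012) and mt-Nd4 (-0.34 ± 0.06, adjusted p = 3.5e-06). The gene mt-Co3 did not pass (-0.02 ± 0.05, adjusted p = 0.78). Whether read assignment on the GRCm38 reference lowered mt-Co2 in Cast and PWK, or mt-Nd4l in PWK, was not tested. The 2 mitochondrial ribosomal RNA genes differed among strains, and 1 library decided their B6 values. B6_5 had 68473 CPM of mt-Rnr1 and 86982 CPM of mt-Rnr2, while the other 7 B6 libraries averaged 2824 ± 1442 CPM and 4069 ± 1019 CPM. With B6_5 both genes passed as higher in B6 (log2 differences 1.76 and 1.94), and without it neither did (-0.21, adjusted p = 0.68, and 0.12, adjusted p = 0.59). Between wild-derived and classical strains neither passed with B6_5 (mt-Rnr1 0.30 ± 0.27, adjusted p = 0.34; mt-Rnr2 -0.09 ± 0.21, adjusted p = 0.75), whereas both were higher without it (0.69, adjusted p = 0.0012, and 0.27, adjusted p = 0.0059). Libraries had been selected for polyadenylated RNA, in which these ribosomal RNAs are an incomplete sample.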

How the data were processed

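Muscle was pulverised frozen and its RNA, with ERCC spike-ins, was poly(A)-selected and made into KAPA mRNA HyperPrep libraries, per the labels' protocols. Per the submitters' processing notes, the build was GRCm38 and DESeq2 was used, with no role or version stated. Not given in the sources used here are the aligner and the counter. The table the authors deposited holds expected counts, unscaled, of 19462 genes, with 80.4% of values whole. A second table that the authors deposited holds variance-stabilised log2 values made from the same genes, with settings not stated. The design had assumed counts, so expected counts were rounded before testing.

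One edgeR quasi-likelihood fit (edgeR 4.0.16, R 4.3.3; TMM, filterByExpr, strain as the factor, 53 residual degrees of freedom) gave all tests, with Benjamini-Hochberg adjustment over 16682 genes. SE was computed from each log2 difference and its F. On counts simulated for the Cast comparison over 16682 genes, 99% of genes changed by 0.6 on the log2 scale and 24% of those changed by 0.3 were recovered. The simulation gave every gene the same dispersion and changed 100 genes by each amount, whereas 61.8% of all genes passed in Cast. These shares are therefore a check of the fit and not the power of the tests on these data. Members, gene lists and comparisons were chosen with earlier results of these data known. Named members are the 10 largest F, all that did not pass, the 2 highest and 2 lowest called in each strain, the 4 highest and 4 lowest called between wild-derived and classical strains, the 3 highest and 3 lowest per length, and those named for their roles. Copies were searched with BLAST 2.17.0 in GENCODE release M21 (at least 95% identity over 200 bases and 50% of the shorter transcript); 59 members had the deposited gene ends. RefSeq protein sequences were not used here. Title numbers did not pair libraries across strains. Alternatives were other scalings, filters, tools (DESeq2 1.42.0, limma 3.58.1), covariates and left-out libraries or strains.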

Additional observations from a re-analysis of the deposited data

Results flagged for a closer look

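Within strains, the named members, the summed members and the ratio of the subunits were checked for a library far from the others of its strain, and 32 of 312 strain groups had one. Chance flags about 1 in 20 groups. The flags were not spread evenly: 12 fell in B6_5, 6 in PWK_4 and 4 in NZO_1. Values are given as the library's level against the range of the other libraries of its strain.

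In B6_5, the library rich in Rn18s-rs5, 11 members and their sum were low. Small-subunit members were Mrps14 with 18 CPM against 22.1 to 25.3 CPM, Mrps16 with 8.39 CPM against 12.9 to 15.8 CPM and Mrps18c with 7.27 CPM against 11 to 14 CPM. Large-subunit members were Mrpl36 with 8.39 CPM against 11.4 to 13.9 CPM, Mrpl18 with 37.9 CPM against 50.9 to 59.1 CPM, Mrpl9 with 24.6 CPM against 32.8 to 38.5 CPM and Mrpl55 with 11.7 CPM against 16.3 to 19.9 CPM. They were also Mrpl10 with 14.8 CPM against 18.9 to 22.1 CPM, Mrpl33 with 18.6 CPM against 27.8 to 32 CPM, Mrpl14 with 16 CPM against 20.7 to 24.6 CPM and Mrpl12 with 34.2 CPM against 47.2 to 53.8 CPM. The summed members had 1407 CPM against 1726 to 1906 CPM.

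In PWK_4, 6 large-subunit members were high, namely Mrpl15 with 94.7 CPM against 68.2 to 78.2 CPM, Mrpl47 with 30.01 CPM against 21.8 to 24.3 CPM and Mrpl18 with 74.7 CPM against 54.8 to 59.9 CPM. The others were Mrpl55 with 26.4 CPM against 18.4 to 21.6 CPM, Mrpl12 with 76 CPM against 53.1 to 62.5 CPM and Mrpl45 with 43.7 CPM against 30.7 to 35.2 CPM. In NZO_1, Mrpl23 was high with 4.37 CPM against 1.29 to 2.73 CPM, and low members were Mrpl57 with 6.82 CPM against 9.56 to 11.2 CPM, Mrpl17 with 20.4 CPM against 25.1 to 27.3 CPM and Mrpl12 with 38.3 CPM against 50.8 to 59.4 CPM. In NZO_8, low members were Mrps9 with 17.2 CPM against 22 to 25.9 CPM and Mrpl19 with 12.8 CPM against 15.3 to 16.2 CPM, and in NZO_2 Mrpl33 was high with 31.7 CPM against 26.4 to 28.7 CPM.

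Single values stood apart elsewhere. Mrpl33 was low in Cast_8 with 35.8 CPM against 41.5 to 44.2 CPM, and Mrpl17 was high in Cast_6 with 33.6 CPM against 25.3 to 28.7 CPM. Mrpl40 was high in WSB_4 with 15.5 CPM against 13.2 to 14.1 CPM. In AJ, Mrpl36 was high in AJ_1 with 14.1 CPM against 11.1 to 12.2 CPM, while Mrpl9 was low in AJ_4 with 32.2 CPM against 33.5 to 34.5 CPM and Mrpl45 low in AJ_2 with 29.4 CPM against 32.3 to 34.5 CPM. The ratio of small- to large-subunit summed CPM was 0.438 in WSB_9 against 0.411 to 0.423 in the other WSB libraries.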

How the results depend on the processing

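The count of members that differed among strains was 69 to 71 in every alternative run. Under 2 alternatives a strain's count left the range of 1.5 times its value. Members called in 129 were 15 with the marker sums as covariates (25 without them). Members called in B6 were 14 without the libraries high in keratinocyte markers (31 with them). The cause was not tested. With the counts of Mrpl23 and Mrpl23-ps1 summed, the Mrpl23 log2 difference reversed to -0.022 in Cast, 0.043 in AJ, 0.11 in 129 and -0.042 between wild-derived and classical strains, and 0 of these 4 passed. Between wild-derived and classical strains, Mrps17 reversed to 0.089 without PWK and Mrpl42 to 0.062 without Cast. The 2 differences had rested on those strains. Of the values of single named members, 849 kept their direction and side of the threshold under settings other than left-out libraries, 7 lost and 2 gained the call.

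Leaving out each library in turn gave 48 to 56 members called in Cast, 40 to 44 in PWK, 32 to 39 in WSB, 28 to 37 in AJ, 29 to 34 in B6, 21 to 27 in 129, 23 to 30 in NOD, 28 to 36 in NZO and 55 to 58 between wild-derived and classical strains, where the median member difference was 0.11 to 0.14. Title numbers gave no pairing: after strain means were removed, libraries with the same number correlated with a median r of 0.011 (186 pairs) and libraries with other numbers with a median of 0.000 (1441 pairs). With the number as a replicate block, 71 members differed among strains and 56 were called between wild-derived and classical strains. Counts of 17.1 M to 65.2 M per library limit the lowest members most.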

Other observations

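Mrpl41 and Mrpl9 were spread most widely in Cast, and their highest Cast libraries were the same 3. Mrpl41 had 34.7 CPM in Cast_6, 21.95 CPM in Cast_1 and 15.7 CPM in Cast_5, and 7.19 to 10.3 CPM in the other 4 Cast libraries. Mrpl9 had 49.9 CPM in Cast_6, 27.3 CPM in Cast_1 and 35.5 CPM in Cast_5, and 13.3 to 18.8 CPM in the other 4. The pattern was not limited to these members. Mrps18b was also highest in Cast_6, Cast_5 and Cast_1, with 35.5 to 46.6 CPM, against 25.7 to 30.5 CPM in the other 4. Mrpl28 was lowest in the same 3, with 11.3 to 15.8 CPM, against 17.1 to 21.4 CPM. These libraries were picked out after the values were seen, and no test was made.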
